A study of Mus musculus with 51 samples.

Results

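Androgen-responsive and prostate lineage genes were followed in RNA sequencing libraries of mouse prostate cancer cells and tumors in which the ubiquitin-activating enzyme Uba1 was depleted, overexpressed or inhibited. The 7 genes were chosen by name from the 40077 genes of the deposited tables. They comprise the lineage transcription factors Foxa1, Hoxb13 and Spdef and the androgen-regulated or prostate-restricted genes Fkbp5, Tmprss2, Pbsn and Trpv6. They were read in all 44 libraries of Myc-CaP, a prostate carcinoma line from a mouse that carried MYC under the probasin promoter, and in 7 tumors of the melanoma line B16-BL6 as the other lineage.

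Myc-CaP tumors were grown under the skin of male FVB mice and carried a non-targeting sgRNA (sgNC, n = 3), an sgRNA against Uba1 (sgUba1, n = 7), an empty lentiviral vector (EV, n = 3) or lentiviral Uba1 (Uba1 OE, n = 4), or came from mice that received vehicle (n = 6) or TAK-243 (n = 5), an inhibitor of Uba1. Myc-CaP cells in culture formed 8 groups of 2 libraries: unedited cells with or without TAK-243 at 50 nM, and sgNC or sgUba1 cells, each with or without IFN-γ. B16-BL6 tumors, grown in female C57BL/6 mice, carried sgNC (n = 3) or sgUba1 (n = 4). Depleted lines were selected as single-cell sublines and overexpressing cells as a resistant pool, so a depleted group stands for 1 or a few clones and host strain and sex change with the line. The hosts were young adult mice by the methods of the study, and the labels number tumors, not mice. P-values therefore measure the spread between these samples, which in cells may be technical.

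Steroid hormone receptors are kept ready by a chaperone complex of heat shock proteins and immunophilins and, once bound by hormone, bind response elements in chromatin. Foxa1 opens chromatin at enhancers of luminal prostate cells, Hoxb13 is a homeobox factor that marks prostate-specific sites, and Spdef is an Ets factor of secretory epithelium. Fkbp5 encodes an immunophilin of the chaperone complex and is induced strongly by both androgens and glucocorticoids. Tmprss2 encodes a membrane serine protease, Pbsn the secretory protein probasin and Trpv6 a calcium channel of epithelial membranes.

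Promoter sequence was taken for 6 of the 7 genes from RefSeq on build GRCm38.p6 (Hoxb13 has no entry), and 3 windows of up to 250 bases before the annotated start are printed. The windows of Fkbp5 and Foxa1 lie inside the GENCODE M21 spans of these genes given further on, because RefSeq places the start used here downstream of the outer end of the span. Fkbp5 is the gene with the largest response in culture, Foxa1 holds a forkhead motif in its own window, and Trpv6 holds a hormone response half-site although the gene was close to undetected in these libraries. All 3 lie on the minus strand, are written 5′ to 3′, and have motif matches in capitals: chr17:28486150-28486399 for Fkbp5, chr12:57546122-57546361 for Foxa1 and chr6:41636406-41636655 for Trpv6.
Fkbp5: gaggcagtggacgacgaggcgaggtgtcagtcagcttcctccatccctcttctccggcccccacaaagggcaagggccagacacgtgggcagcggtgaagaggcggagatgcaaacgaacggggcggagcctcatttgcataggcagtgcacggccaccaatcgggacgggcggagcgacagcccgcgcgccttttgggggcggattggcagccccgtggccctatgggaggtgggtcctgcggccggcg
Foxa1: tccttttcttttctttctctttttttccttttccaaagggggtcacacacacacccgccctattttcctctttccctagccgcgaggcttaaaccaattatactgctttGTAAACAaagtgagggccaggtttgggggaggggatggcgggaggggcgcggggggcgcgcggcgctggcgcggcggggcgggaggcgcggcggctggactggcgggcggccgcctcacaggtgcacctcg
Trpv6: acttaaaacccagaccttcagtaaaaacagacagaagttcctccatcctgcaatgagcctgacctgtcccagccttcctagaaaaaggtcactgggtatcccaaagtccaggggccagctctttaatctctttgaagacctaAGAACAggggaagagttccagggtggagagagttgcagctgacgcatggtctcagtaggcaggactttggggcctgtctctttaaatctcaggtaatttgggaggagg

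The motifs searched on both strands were the androgen response element half-site AGAACA (reverse complement TGTTCT), which other steroid receptors share, and the forkhead motif GTAAACA (reverse complement TGTTTAC). The half-site occurs in 16% and the forkhead motif in 3.17% of the 32544 promoters in the table. The Foxa1 forkhead match begins 141 bases before the start. Its printed window leaves out the 10 bases next to the start, which a GENCODE M21 exon covers. Half-sites begin 108 bases before the start of Trpv6, 95 before that of Pbsn and, on the other strand, 196 before that of Spdef. The GENCODE M21 span of Pbsn covers the 123 bases of its window next to the RefSeq start. Its half-site thus lies inside that span and not upstream of it. Neither motif is found in the windows of Fkbp5 and Tmprss2. A match is a description of these letters and not a site. Fkbp5 (17: 28399094 to 28517527, minus strand) and Spdef (17: 27714352 to 27728955) lie on the same chromosome, Foxa1 spans 57540628 to 57546916 on chromosome 12 and Hoxb13 spans 96194316 to 96197447 on chromosome 11, all as GENCODE M21 gene spans on GRCm38.

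Libraries held 8652097 to 38032395 counts. The summed level of 10 melanocyte genes was 10526 to 12543 TPM (an abundance scaled by gene length and by library) in the B16-BL6 tumors and at most 16.3 TPM in any Myc-CaP library, so the lineages separated by their markers, although the labels call both lines epithelial. The epithelial label held for most but not all luminal markers in Myc-CaP. The 17 luminal epithelial genes summed to 800 to 1275 TPM in sgNC tumors and 3.63 to 4.73 TPM in B16-BL6 sgNC tumors, and 10 of 11 tested were higher in Myc-CaP (median log2 difference 6.09). Of the 17, 9 had at most 3 counts in every B16-BL6 sgNC tumor. Those of the 9 that were tested passed the filter on low counts only through Myc-CaP. Their direction was fixed in advance and adds no support. In Myc-CaP, 5 of the 17 had at most 3 counts in every sgNC tumor and 7 in every unedited control culture, Epcam among them in both. Of 12 prostate secretory genes, 8 and 11 were at that level. The sum of this list did not separate the lineages, at 25 to 52.5 TPM in sgNC tumors and 41.8 to 45.1 TPM in B16-BL6 sgNC tumors. In the B16-BL6 sgNC tumors 8 of the 12 also had at most 3 counts.

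Uba1, the targeted gene, went against its label in part of the tumors. In tumors labelled sgUba1 its level was 84.4, 83.7, 88.1, 133, 126, 134 and 141 TPM in replicates 1 to 7, against 121, 131 and 129 TPM in sgNC tumors. Replicates 4, 6 and 7 exceeded every sgNC tumor and replicate 5 lay within their range. The log2 difference in counts was −0.13 ± 0.244 (SE, edgeR adjusted p = 0.787). Uba1 was lower in all 4 B16-BL6 sgUba1 tumors, at 80.7 to 93.0 TPM against 146 to 158 (log2 difference −0.92, adjusted p = 2.94e-04). It was also lower in both sgUba1 cultures, at 112 and 109 TPM against 196 and 200 (−0.87, adjusted p = 3.71e-07), and higher in Uba1 OE tumors, at 240 to 283 TPM against 108 to 121 (1.27, adjusted p = 0.00503), a call lost without EV replicate 2 (1.24, adjusted p = 0.116) or replicate 3. What follows on Myc-CaP tumors labelled sgUba1 therefore concerns the label. TAK-243 acts on the enzyme, and Uba1 RNA does not check it.

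The 7 genes fell apart into 3 that were well detected and 4 that were close to absent. Foxa1 ranged from 69.0 to 177 TPM over 28 Myc-CaP tumors (median 114) and from 50.1 to 152 TPM in cells. Hoxb13 ranged from 9.02 to 31.5 TPM in tumors (median 17.5) and from 3.46 to 14.9 TPM in cells. Fkbp5 ranged from 298 to 635 TPM in tumors (median 510) and from 27.3 to 239 TPM in cells. On this scale per length Fkbp5 was the most abundant of the 7 in every Myc-CaP tumor, followed by Foxa1 and Hoxb13.

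**Figure D1:**
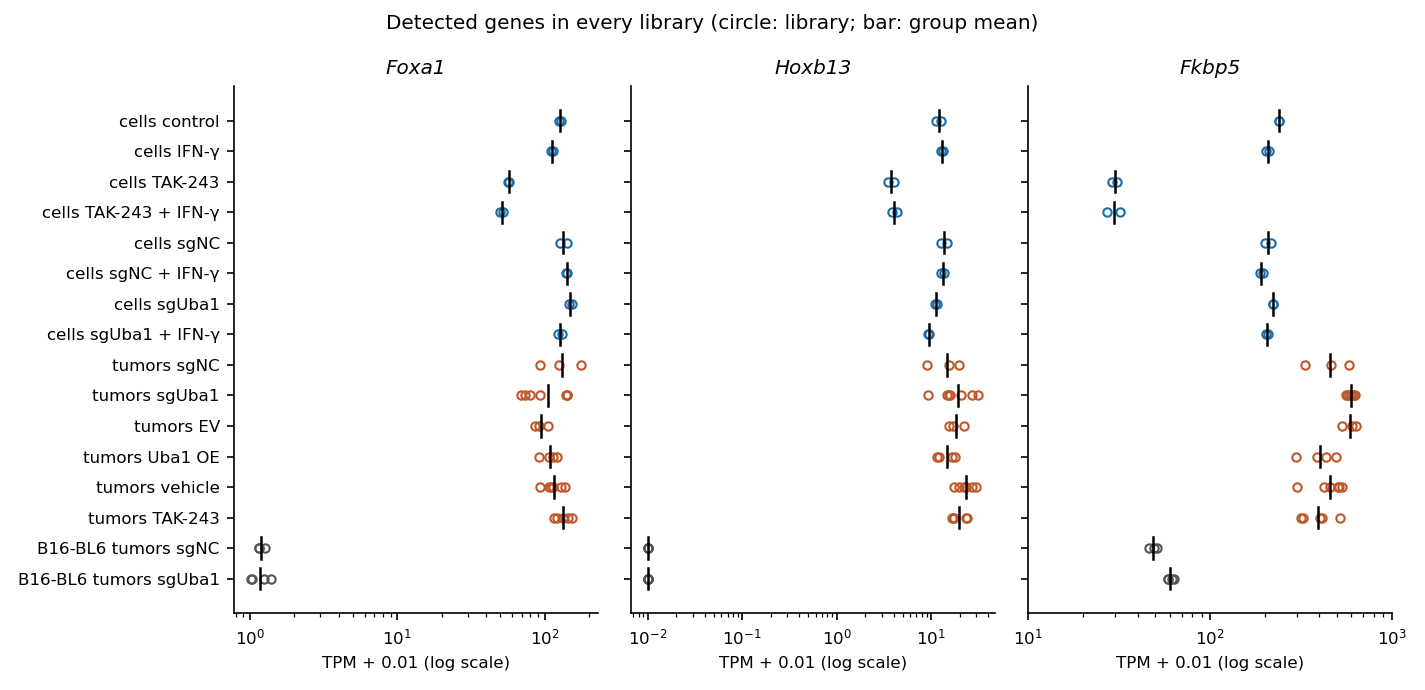
Level of Foxa1, Hoxb13 and Fkbp5 in every library, as TPM + 0.01 on a log axis that differs between panels; circles are libraries, bars group means. Fkbp5 stands at 27.3 to 32.0 TPM in the 4 TAK-243 cultures and at 189 TPM or more in the other 12 cultures, and Hoxb13 is at 0 in all 7 B16-BL6 tumors.

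Spdef, Tmprss2, Pbsn and Trpv6 had at most 7 counts in any of the 51 libraries and passed the filter on low counts in no comparison. Spdef had a count in 20 of 44 Myc-CaP libraries, 42 counts in all, of which the TAK-243 cultures held 4 and 2 and the TAK-243 cultures with IFN-γ 3 and 7. Tmprss2 had a count in 15 libraries, 40 in all, and in tumors labelled sgUba1 it had 5, 5, 3, 0, 2, 0 and 1. Pbsn, whose promoter drives MYC in the mouse of origin, had 2 counts in 1 Uba1 OE tumor and none elsewhere in Myc-CaP. Trpv6 had counts in 3 Myc-CaP libraries, 4 in all.

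At these depths 3 counts, the limit that a count of 0 allows, correspond to 0.0789 to 0.347 CPM (counts scaled by library size), so lower levels were not detectable. These limits cover counting error only. Related genes were not uniformly as low. The 10 membrane serine proteases of the Tmprss2 class summed to 3.67 to 7.40 TPM in sgNC tumors, 2.90 to 22.7 TPM in tumors labelled sgUba1 and 0.559 to 0.694 TPM in unedited control cultures. Of these, 4 had at most 3 counts in every sgNC tumor, 1 in every vehicle tumor and 7 in every unedited control culture. Of 8 calcium transport genes 5, Trpv6 among them, were at that level in every sgNC tumor, and the list summed to 144 to 205 TPM there. No fold change is given for the 4 genes, because every group lay at or near that limit.

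**Figure D2:**
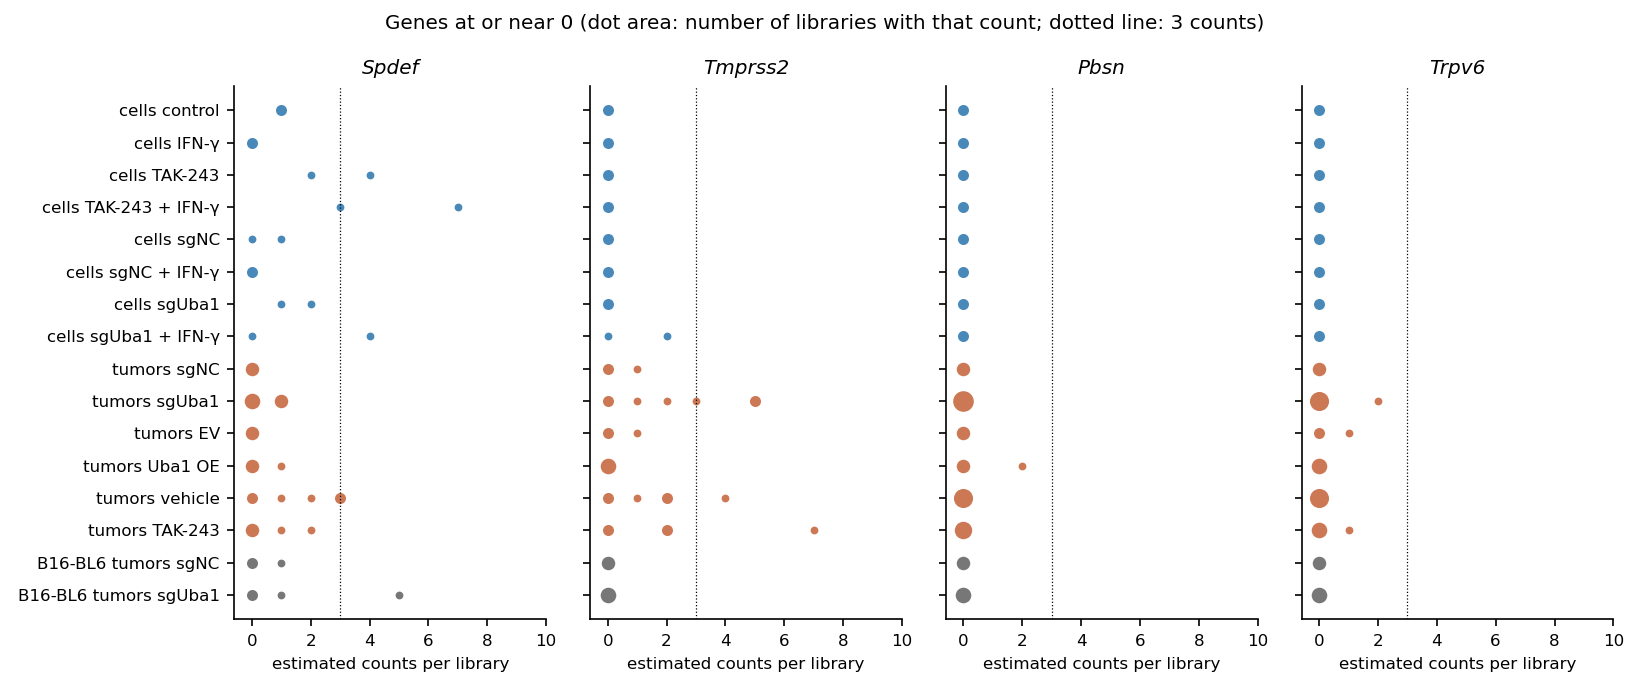
Deposited counts of Spdef, Tmprss2, Pbsn and Trpv6 in every library, by group; dot area gives the number of libraries with that count and the dotted line marks 3 counts. No library exceeds 7 counts; counts above 3 occur for Spdef and Tmprss2 only.

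Against the melanoma lineage the 3 detected genes were all higher in Myc-CaP. All 3 of 3 passed the test in sgNC tumors, where 59.9% of all genes tested did (29.7% higher in Myc-CaP). Hoxb13 passed the filter on low counts only through its Myc-CaP counts, so its call was fixed in advance and adds no support. Foxa1 was at 93.4, 177 and 125 TPM in Myc-CaP sgNC tumors and at 1.15, 1.14 and 1.27 TPM in B16-BL6 sgNC tumors, a 104-fold difference (log2 6.70 ± 0.256, adjusted p = 2.15e-06). Hoxb13 was at 19.9, 9.02 and 15.3 TPM in Myc-CaP and had 0 counts in each B16-BL6 tumor, so it was at least 195-fold higher against a floor of 3 counts per library. Fkbp5 was at 580, 333 and 463 TPM against 46.4, 51.0 and 49.2 TPM, an 8.71-fold difference (log2 3.12 ± 0.227, adjusted p = 3.62e-05). The groups did not overlap for any of the 3, but the share of all genes without overlap was not counted. Host strain, host sex and sequencing experiment cannot be told apart from the lineage here.

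The other pathway genes separated the lineages unevenly. Of 12 steroid receptor cofactor genes, a list that includes Foxa1 and Hoxb13, 6 were higher and 4 lower in Myc-CaP, with a median log2 difference of 0.09 against 0.00 for all genes. The call of Hoxb13, and of any gene here that passed the filter only through its Myc-CaP counts, was fixed in advance. Grhl2, an epithelial transcription factor that shares sites with Foxa1, had a log2 difference of 8.17 ± 0.296 (adjusted p = 1.71e-06). Of 29 androgen-regulated genes, 10 were higher and 10 lower, and Steap4, a metalloreductase, was 5.23 higher on the log2 scale (adjusted p = 5.25e-06). Of 12 glucocorticoid-regulated genes, 9 were higher and none lower, led by the transcription factor Zbtb16 (7.99, adjusted p = 2.79e-06) and the kinase Sgk1 (6.41, adjusted p = 3.00e-06). Vdr, the vitamin D receptor and a regulator of calcium uptake genes, was 7.82 higher (adjusted p = 2.18e-06).

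Among Myc-CaP control tumors the members were compared over the sgNC, EV and vehicle groups. None of 3 passed a test over the 3 groups, where 0.565% of genes did, with adjusted p from 0.206 (Hoxb13) to 0.406 (Fkbp5). The spread within a group was wide. Foxa1 and Hoxb13 stood in opposite order in the 3 sgNC tumors: replicate 2 had the highest Foxa1 (177 TPM) and the lowest Hoxb13 (9.02 TPM) and Fkbp5 (333 TPM), and replicate 1 the lowest Foxa1 and the highest of the other 2.

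In tumors labelled sgUba1 none of the 3 members passed the test, where 3.04% of genes did. Foxa1 was at 141, 139, 141, 73.3, 92.2, 79.7 and 69.0 TPM in replicates 1 to 7, in the order of the Uba1 values above. Those tumors lay at 139 to 141 TPM or below 93 TPM, and the 3 sgNC tumors spanned that gap (log2 difference −0.33 ± 0.230, adjusted p = 0.415). Hoxb13 was at 27.2, 20.5, 31.5, 15.5, 15.7, 14.7 and 9.27 TPM and overlapped sgNC (0.35 ± 0.328, adjusted p = 0.551). Fkbp5 stayed within 559 to 628 TPM (median 598) and overlapped sgNC through replicate 1 of that group (0.42 ± 0.170, adjusted p = 0.169).

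Summed leukocyte markers were 291 to 578 TPM in tumors labelled sgUba1 and 179 to 334 TPM in sgNC tumors, and 3 of 7 tested leukocyte genes were higher. Their part in the member values was not tested. In bulk tissue, fewer cells of a type and less RNA per cell cannot be told apart.

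Few genes of the lists around the members passed in tumors labelled sgUba1. None of 12 cofactor genes passed, and of 27 androgen-regulated genes 1 did, Zmiz1, a transcriptional coactivator (log2 −1.09 ± 0.247, adjusted p = 0.0440). Of 12 glucocorticoid-regulated genes 1 was higher, Tsc22d3, which encodes the glucocorticoid-induced leucine zipper protein (0.95 ± 0.211, adjusted p = 0.0426). Krt15, a basal keratin, was lower (−4.80 ± 0.921, adjusted p = 0.0297). Leaving out 1 of 10 tumors ended the Zmiz1 and Tsc22d3 calls in 8 cases each and the Krt15 call in 6, and without sgNC replicate 2 the differences were −0.55, 0.79 and −3.87 (adjusted p = 0.153, 0.18 and 0.131). Other processing choices ended them in 4, 3 and 2 of 9 cases. The replicate block, which took only replicates 1 to 3 labelled sgUba1 against the 3 sgNC tumors, ended all 3. Basal marker genes, of which Krt15 is one, summed to 3.14 to 93.5 TPM in these tumors, 195 to 1379 TPM in sgNC tumors and 45.7 to 154 TPM in EV tumors.

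In the melanoma line, where sgUba1 lowered Uba1 in every tumor, neither of the 2 tested members passed, where 0.724% of genes passed. Foxa1 was at 1.23, 1.38, 1.01 and 1.02 TPM, overlapping sgNC (log2 −0.09, adjusted p = 0.833). Fkbp5 was at 58.8, 61.8, 58.8 and 63.1 TPM, all above the highest sgNC tumor at 51.0 TPM, but on CPM replicate 1 (97.7) overlapped sgNC (89.8 to 98.3) and the test missed the threshold (0.20 ± 0.068, adjusted p = 0.211). The share of all genes that separated on TPM was not counted.

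With overexpression of Uba1, 0 of 3 members passed the test. That comparison called 0.0269% of genes (4 of 14853), although 2698 genes had an unadjusted p under 0.05. Foxa1 was at 92.1, 121, 106 and 114 TPM in Uba1 OE tumors and at 105, 85.9 and 90.9 TPM in EV tumors (log2 0.26 ± 0.107, adjusted p = 0.249). Fkbp5 was at 298, 436, 390 and 494 TPM against 608, 635 and 532 TPM (−0.41 ± 0.148, adjusted p = 0.218). Hoxb13 was at 18.0, 16.6, 11.5 and 12.1 TPM against 17.02, 15.6 and 22.3 TPM (−0.26 ± 0.209, adjusted p = 0.53).

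On TPM every Uba1 OE tumor lay below every EV tumor for Fkbp5, while Foxa1 and Hoxb13 overlapped. The share of all genes that separated in this way was not counted, so the separation is not particular to Fkbp5. On CPM Fkbp5 overlapped, since replicate 4 of Uba1 OE (938.9) exceeded replicate 3 of EV (900.2). The lowest Fkbp5 value came from Uba1 OE replicate 1, whose summed skeletal muscle markers reached 403 TPM. Their part in that value was not tested.

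TAK-243 lowered every detected member in cultured cells. All 3 of 3 passed, all lower, where 66.3% of genes passed and 34% were lower, so the count itself is not particular to them. Their sizes stood further out: Fkbp5 fell from 239 and 239 TPM to 31.0 and 28.8 TPM, 7.67-fold lower in counts (log2 −2.94 ± 0.036, adjusted p = 1.37e-31). Only 0.536% of genes tested had a lower log2 difference. Hoxb13 fell from 12.8 and 11.2 TPM to 4.03 and 3.46 TPM, 3.13-fold lower (−1.64 ± 0.136, adjusted p = 7.26e-12), with 4.38% of genes below it. Foxa1 fell from 125 and 129 TPM to 57.1 and 56.8 TPM, 2.19-fold lower (−1.13 ± 0.035, adjusted p = 5.3e-22), with 10.2% of genes below it. Uba1 RNA rose by 0.37 on the log2 scale (adjusted p = 5.68e-12). In none of these genes did the groups overlap, which was not counted over all genes and so is not particular to them.

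With IFN-γ present, TAK-243 again went with lower members. All 3 passed, all lower, where 68.2% of genes passed and 36.2% were lower. Fkbp5 was at 27.3 and 32.0 TPM against 212 and 205 TPM, 8.78-fold lower in counts (log2 −3.13, adjusted p = 3.34e-32). Hoxb13 was at 4.30 and 3.85 TPM against 13.5 and 12.7 TPM (−1.84, adjusted p = 1.21e-13). Foxa1 was at 50.1 and 52.5 TPM against 111 and 114 TPM (−1.28, adjusted p = 2.11e-23).

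The other cofactor genes and targets moved in both directions under TAK-243 in culture. Of 10 tested cofactor genes, 4 were higher and 6 lower, with a median of −0.21 against 0.03 for all genes. Hsp90aa1, the inducible heat shock protein 90 of the receptor chaperone complex, rose from 1807.9 and 1822.1 CPM to 6667.8 and 6899.8 CPM (log2 1.90 ± 0.023, adjusted p = 1.37e-31). Ncoa3, a steroid receptor coactivator, was 1.13 higher (adjusted p = 2.35e-18), and smaller rises were seen for Spop, a ubiquitin ligase adaptor (0.30, adjusted p = 2.00e-08), and the coactivator Ncoa1 (0.23, adjusted p = 0.00788). Spop missed the threshold on log2(TPM + 1) (0.15), and Ncoa1 without control replicate 1 or either TAK-243 replicate (0.14 to 0.20). Grhl2 fell from 81.1 and 81.9 CPM to 27.1 and 29.2 CPM (−1.54 ± 0.067, adjusted p = 1.68e-18). The other falls were small, namely Ncoa2 (−0.44), the immunophilin Fkbp4 (−0.30) and Ncor1 (−0.12). Nr3c1, the glucocorticoid receptor, and Gata2 were too low to test in cells.

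Of 24 androgen-regulated genes tested, 5 rose and 14 fell (median −0.49), and members are counted in the lists they belong to. Steap4 fell from 4.40 and 5.68 CPM to 0.552 and 0.401 CPM (−3.35 ± 0.344, adjusted p = 6.94e-10). With TAK-243 Steap4 lay below the filter on low counts and was tested only through other cultures, so its call adds no support. Its size ranged from −3.37 to −1.49 over the other processing choices. Steap2, another metalloreductase, fell from 300.3 to 95.8 CPM on average (−1.65 ± 0.039, adjusted p = 7.54e-25). Aldh1a3, an aldehyde dehydrogenase, rose from low levels of 0.375 and 0.447 CPM to 1.44 and 1.66 CPM (1.90 ± 0.467, adjusted p = 6.75e-04). In control cells Aldh1a3 lay below that filter, so its call adds no support either. Over the other processing choices it ranged from 0.76 to 1.93, with the call lost in 1 of 8.

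Of the 12 glucocorticoid-regulated genes, a list that includes Fkbp5, 5 rose and 6 fell. Dusp1, a phosphatase of stress-activated kinases, rose from 30.2 to 210.5 CPM on average (2.80 ± 0.048, adjusted p = 3.11e-28), and Errfi1, an inhibitor of epidermal growth factor receptor signalling, was 1.25 higher (adjusted p = 3.44e-24). Cdkn1c, a cell cycle inhibitor, fell from 2.24 to 0.274 CPM (−2.97 ± 0.471, adjusted p = 2.07e-06). With TAK-243 Cdkn1c lay below the filter on low counts, so its call adds no support. Its size ranged from −3.01 to −1.32 over the other processing choices.

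Of the genes that handle calcium with Trpv6, all 3 tested were lower: Vdr fell from 28.0 and 28.8 CPM to 5.34 and 5.14 CPM (−2.43 ± 0.125, adjusted p = 1.08e-16), and the calcium pump gene Atp2b1 by 0.65 on the log2 scale (adjusted p = 4.03e-12). Atp2b4, a second pump gene, had a log2 difference of −0.56 in counts (adjusted p = 1.95e-13) but of 0.05 in log2(TPM + 1). Basal keratins parted ways, since Krt15 fell from 952.6 to 142.9 CPM (−2.74 ± 0.031, adjusted p = 3.6e-32), whereas Krt14 rose from 0.282 to 6.94 CPM (4.57 ± 0.373, adjusted p = 5.23e-12) and Krt17 from 0.0319 to 2.39 CPM. Krt14 and Krt17 lay below the filter on low counts in control cells and were tested only through other cultures, so their calls add no support. Over the other processing choices Krt14 ranged from 2.60 to 4.62 and Krt17 from 1.76 to 6.26.

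**Figure D3:**
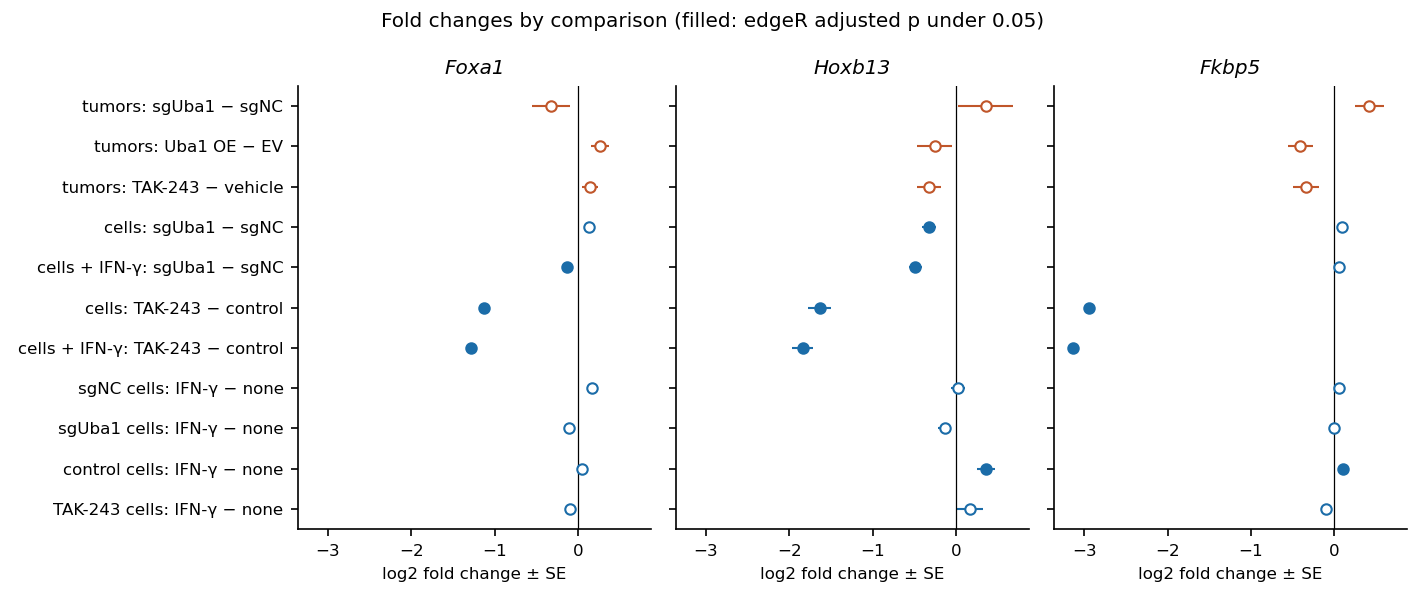
Log2 fold changes of Foxa1, Hoxb13 and Fkbp5 in counts for each comparison of Uba1 depletion, overexpression, inhibition or IFN-γ in Myc-CaP; points are edgeR estimates, filled where the adjusted p was under 0.05, and bars 1 SE. The TAK-243 cultures reach −2.94 for Fkbp5 without and −3.13 with IFN-γ, and the tumor comparisons lie between −0.41 and 0.42.

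Systemic TAK-243 left the members in tumors without a call: 0 of 3 passed, where 0.145% of genes did (25 of 17299). Fkbp5 was at 520, 413, 326, 401 and 316 TPM in treated tumors and from 302 to 531 TPM (median 483) in 6 vehicle tumors (log2 −0.34 ± 0.154, adjusted p = 0.332). Hoxb13 was at 23.8, 17.1, 16.7, 23.6 and 17.5 TPM against 17.6 to 30.0 TPM, median 22.9 (−0.33 ± 0.141, adjusted p = 0.303). Foxa1 was at 116, 145, 122, 152 and 133 TPM against 92.6 to 138 TPM, median 112 (0.14 ± 0.099, adjusted p = 0.512). The groups overlapped for all 3. Leukocyte marker sums were 178 to 371 TPM in treated and 152 to 250 TPM in vehicle tumors. Skin keratinocyte markers summed to 63.3 TPM in treated replicate 1, which had the highest Fkbp5 and Hoxb13 of its group. Skeletal muscle markers summed to 366 TPM in vehicle replicate 6. The part of these host cell markers in the member values was not tested.

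The difference between the TAK-243 effects in culture and in tumors was itself tested in one fit of both experiments, a comparison added after the data were seen. All 3 members passed with a lower effect in cells, where 29.1% of genes passed and 14.9% in that direction. The effect in cells minus that in tumors was −2.61 ± 0.289 for Fkbp5 (adjusted p = 1.1e-05), −1.32 ± 0.287 for Hoxb13 (adjusted p = 0.00263) and −1.28 ± 0.176 for Foxa1 (adjusted p = 6.86e-05). Dose, exposure, host cells and sequencing experiment cannot be told apart in this contrast.

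Among the other pathway genes, 5 of 10 cofactor genes measured in both settings moved beyond 1 log2 unit in cells and 0 in tumors, where they spanned −0.33 to 0.14. Of 24 androgen-regulated genes 12 did so in cells and 0 in tumors, where the span was −0.34 to 0.52. The difference between the effects passed for Hsp90aa1 (1.92 ± 0.259, adjusted p = 5.96e-05), Grhl2 (−1.41 ± 0.261, adjusted p = 7.92e-04), Steap4 (−3.64 ± 0.759, adjusted p = 0.00198) and Vdr (−2.33 ± 0.378, adjusted p = 2.84e-04). The Steap4 difference ranged from −3.71 to −1.75 over the other processing choices. In tumors no gene of these lists passed on its own.

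**Figure D4:**
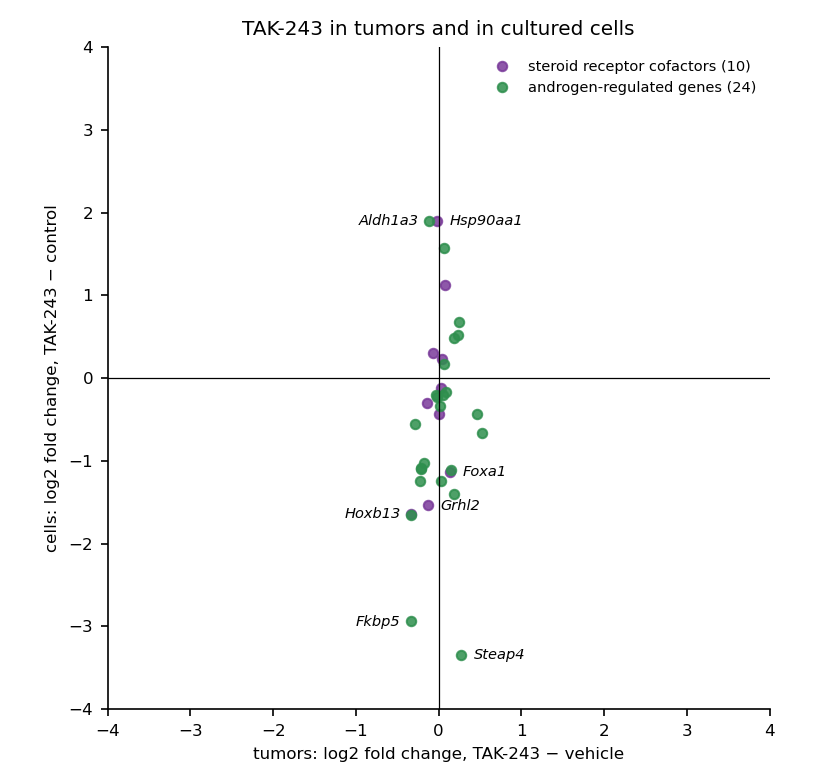
Log2 fold change with TAK-243 in tumors (horizontal) and in cultured cells (vertical) for 10 steroid receptor cofactor genes and 24 androgen-regulated genes, 1 point a gene. Points spread from −3.35 to 1.90 in cells and from −0.34 to 0.52 in tumors.

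Depletion of Uba1 in cultured cells moved 1 of 3 members, which was lower, where 29.7% of genes passed and 13.6% were lower. Hoxb13 was at 10.9 and 11.5 TPM in sgUba1 cells and at 12.7 and 14.9 TPM in sgNC cells. It was 1.26-fold lower in counts (log2 −0.33 ± 0.081, adjusted p = 0.00984). The groups did not overlap, but the share of all genes without overlap was not counted. The Hoxb13 call was lost without sgNC replicate 2 (−0.24, adjusted p = 0.0748) and on log2(TPM + 1) (−0.27). Foxa1 was at 145 and 152 TPM against 126 and 141 TPM (0.13 ± 0.050, adjusted p = 0.0784). Fkbp5 was at 223 and 221 TPM against 201 and 216 TPM (0.09 ± 0.051, adjusted p = 0.209).

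With IFN-γ, 2 of 3 members passed, both lower, where 39.4% of genes did and 22.4% were lower. Hoxb13 was at 9.32 and 9.48 TPM against 13.6 and 12.9 TPM, 1.4-fold lower in counts (−0.49 ± 0.081, adjusted p = 6.06e-04). Foxa1 was at 123 and 132 TPM against 143 and 140 TPM, a difference of −0.14 ± 0.049 (adjusted p = 0.0396) that was lost in 6 of 9 other processing choices and when any 1 of 6 cultures of the fit was left out. Fkbp5 was at 204 and 209 TPM against 189 and 195 TPM (0.05, adjusted p = 0.498).

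Set beside TAK-243 in the same line, the 2 ways of acting on Uba1 differed for every detected member. The TAK-243 effect minus the sgUba1 effect, tested in one fit added after the data were seen, was −3.04 ± 0.081 for Fkbp5 (adjusted p = 1.39e-11), −1.33 ± 0.168 for Hoxb13 (adjusted p = 1.43e-05) and −1.27 ± 0.073 for Foxa1 (adjusted p = 9.12e-09), where 54% of genes passed and 29.4% in that direction. The sgUba1 and TAK-243 cultures belong to separate experiments, which cannot be told apart from this difference.

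Genes of the pathway lists passed in both directions in sgUba1 cells, where 16.2% of all genes tested were higher and 13.6% lower; no list was tested as a whole. Of 10 cofactor genes 1 was higher, Ncoa1 (0.58, adjusted p = 2.78e-05), and 4 lower, among them Grhl2 (−0.67, adjusted p = 1.05e-05). Of 24 androgen-regulated genes 10 were higher and 3 lower, led by Steap4 (3.25 ± 0.317, adjusted p = 3.41e-05) and the membrane transporter gene Slc45a3 (1.38 ± 0.278, adjusted p = 0.00314). Their sizes depend on the processing: over the other choices Steap4 ranged from 0.91 to 3.26 and Slc45a3 from 0.52 to 1.39. The Slc45a3 call was lost in 1 of 9 of these choices. Of 10 luminal epithelial genes 7 were higher and 1 lower, with Rab25, a trafficking GTPase of epithelia, 3.57 higher (adjusted p = 1.27e-05) and the luminal keratin Krt8 1.61 higher (adjusted p = 1.08e-05). Krt18, its partner, had at most 3 counts in each sgNC culture and was at 1.07 and 0.733 CPM in sgUba1 cells. Vdr was 0.65 higher (adjusted p = 6.68e-05).

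Steap4, Vdr and Grhl2 also gave a test of the difference between the manipulations: the TAK-243 effect minus the sgUba1 effect was −6.61 ± 0.461 for Steap4 (adjusted p = 5.09e-08), −3.09 ± 0.133 for Vdr (adjusted p = 8.71e-10) and −0.88 ± 0.091 for Grhl2 (adjusted p = 2.08e-06), with Hsp90aa1 at 1.84 ± 0.071 (adjusted p = 4.32e-10). The Steap4 difference kept its call over the other processing choices but ranged from −6.67 to −2.41. Each line of sgUba1 cells comes from single-cell selection, so the effect of the subline and that of the edit cannot be told apart.

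IFN-γ by itself was tested in each culture. In unedited cells 2 of 3 passed, both higher, where 29% of genes passed and 19.6% were higher: Hoxb13 rose from 17.6 and 15.4 CPM to 21.8 and 20.6 CPM (log2 0.36 ± 0.107, adjusted p = 0.0115), and Fkbp5 from 473.2 and 474.7 CPM to 506.8 and 507 CPM (0.10 ± 0.028, adjusted p = 0.00982). On TPM Fkbp5 went the other way, from 239 and 239 to 212 and 205 (−0.20 in log2(TPM + 1), adjusted p = 0.104), so its direction depends on the unit. Foxa1 was at 258.5 and 265.5 CPM without and 268 and 275.8 CPM with IFN-γ (0.05, adjusted p = 0.221), whereas in log2(TPM + 1) its difference was −0.18 (adjusted p = 0.026). Leaving out any 1 of the 8 cultures ended the Fkbp5 call, and the Hoxb13 call was lost without control replicate 2 (0.26, adjusted p = 0.164) or without IFN-γ replicate 1 (0.32).

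None of 3 members passed under IFN-γ in TAK-243 cells (10.5% of genes), in sgNC cells (3.88%) or in sgUba1 cells (2.85%). The IFN-γ effect in TAK-243 cells minus that in control cells was −0.20 ± 0.054 for Fkbp5 (adjusted p = 0.0495), 1 of 3 members where 2.38% of genes passed and 2.01% in that direction. In the sgRNA experiment none of 3 differed in this way, where 4.64% of genes did, with Foxa1 at −0.27 ± 0.070 (adjusted p = 0.0538).

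Between cultures and tumors of the same control line, members were called in 1 of 2 comparisons. Sequencing experiment, depth and host cells change with growth in culture or in tumors and cannot be told apart from it. Foxa1 and Fkbp5 went the same way in both comparisons and Hoxb13 did not, and the difference between the comparisons was not tested. Between unedited cells and vehicle tumors 3 of 3 members passed, where 57.6% of genes did and the median of all genes was −0.17. In cells minus tumors the log2 difference was 0.47 ± 0.117 for Foxa1 (adjusted p = 0.00643), −0.63 ± 0.202 for Hoxb13 (adjusted p = 0.022) and −0.56 ± 0.196 for Fkbp5 (adjusted p = 0.0331). Without control culture replicate 2 none of the 3 passed, and without replicate 1 only 1 did. Between sgNC cells and sgNC tumors 0 of 3 passed, where 52.3% of genes did, with Foxa1 at 0.39, Hoxb13 at 0.24 and Fkbp5 at −0.64 (adjusted p = 0.194, 0.594 and 0.102). Without sgNC tumor replicate 2 this count was 2.

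Markers of host cells move with this contrast: in the sgNC comparison all 7 fibroblast and all 6 endothelial genes tested were lower in cells, and their part in the member values was not tested. Of 28 androgen-regulated genes, 4 were higher and 12 lower in sgNC cells, and 8 and 12 in unedited cells. In cells minus tumors, the log2 difference of Steap4 was −9.25 ± 0.416 (adjusted p = 4.00e-04) and −4.49 ± 0.304 (adjusted p = 7.28e-06) in the 2 comparisons, that of Vdr −2.31 (adjusted p = 0.00128) and −1.76 (adjusted p = 8.50e-04), and that of Krt8 −5.07 (adjusted p = 0.0155) and −3.88 (adjusted p = 0.00101). The first Krt8 call was lost without either sgNC culture (adjusted p up to 0.108).

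Over the 14 Myc-CaP groups, mean log2 CPM of Hoxb13 and Fkbp5 had a Pearson correlation of 0.92, Foxa1 and Hoxb13 of 0.60, and Foxa1 and Fkbp5 of 0.49. These are descriptions over groups that share lines, experiments and depth. Among 12355 genes compared in this way, the patterns nearest to Fkbp5 were Mccc2, Zfp523 and Entpd4 (0.99 each), those nearest to Foxa1 were Poglut2, Farp1 and Ado (0.98 each) and those nearest to Hoxb13 included Trabd and C030006K11Rik (0.97 each). No test is attached to these values.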

How the data were processed

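RNA from Myc-CaP cells and from Myc-CaP and B16-BL6 tumors was sequenced in 51 libraries. The labels name poly-A selection and the methods of the study name ribosomal RNA digestion, and which was used was not settled here. The authors deposited 2 tables of 40077 genes: expected counts (estimated counts that need not be whole, rounded here) and TPM, which is scaled by gene length and library. The submitters' processing notes name kallisto and mm10; the annotation is not given in the sources used here, and 39142 gene IDs match GENCODE M21 with the same version.

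Each comparison was fitted across all genes with edgeR 4.0.16 in R 4.3.3 (quasi-likelihood F test, TMM, filterByExpr, Benjamini-Hochberg adjusted p under 0.05). Each tumor experiment was fitted alone and each cell experiment of 8 libraries as 1 fit. SE was taken as the log2 fold change divided by the square root of F. Alternatives were Bonferroni adjustment, RLE, no filter, at least 10 counts in every library, DESeq2 1.42.0, limma 3.58.1 on log2(TPM + 1) and log2(TPM + 0.1), a replicate block, only the groups compared, and leaving out each library. The replicate block kept only replicate numbers found in more than 1 group of a fit. Scripts were tested on simulated data.

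The 7 genes and the gene lists were chosen with earlier results of these data known. The text names every member, Uba1, up to 4 called genes of each list per comparison with the largest fold change, receptor cofactors, and for each member up to 3 genes of most similar pattern. Some genes are not reported here and were left out of the lists. Replicates were compared pairwise: none of 75 pairs was identical, and chi-square per degree of freedom was 1.84 to 99.2. In tumors labelled sgUba1 it was 10 to 22.7 among replicates 1 to 3 and 9.71 to 15 among replicates 4 to 7. Between these 2 sets it was 61.3 to 86.9, and the fits took all 7 tumors as 1 group, so their SE spans both sets.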

Additional observations from a re-analysis of the deposited data

Results flagged for a closer look

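The effect of TAK-243 differed between cultured cells and tumors, by a test of the difference itself, for Fkbp5 (log2 −2.61), Hoxb13 (−1.32) and Foxa1 (−1.28), each lower in cells. The effect of IFN-γ on Fkbp5 differed between TAK-243 and control cells by −0.20 on the log2 scale (adjusted p = 0.0495). That call was lost in 6 of 8 other processing choices and when any 1 of the 8 cultures was left out, and on log2(TPM + 1) the difference was 0.18. No sample stood far from its group in 14 combinations of a detected gene and a group of 4 to 7 samples, where chance alone would mark about 1 in 20 groups. Smaller groups, among them every culture and the sgNC and EV tumors, were not examined.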

How the results depend on the processing

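Over 339 repeats of the member counts, 279 were within 1.5 times the reported count, 48 lower and 12 higher. The TAK-243 calls on Foxa1, Hoxb13 and Fkbp5 in cells (3 of 3) held under every alternative run and without any 1 culture, with Hoxb13 between −1.66 and −1.45 over the alternatives; with IFN-γ and no filter 4 members passed, among them Spdef at 3 and 7 counts. No member was called in a comparison of Uba1 depletion, overexpression or inhibition in tumors under any alternative run. Bonferroni adjustment left 1 of 3 members between the lineages and in the TAK-243 difference between cells and tumors, and 0 in cultures against vehicle tumors, in both sgUba1 cell comparisons, for IFN-γ in control cells and for its interaction with TAK-243. On log2(TPM + 1) and log2(TPM + 0.1) the count was 1 for sgNC cells against tumors (0 reported), 0 for sgUba1 cells (1 reported), 1 for sgUba1 cells with IFN-γ (2 reported), 1 for IFN-γ in control cells (2 reported) and 0 for its interaction with TAK-243 (1 reported). RLE gave 1 for sgUba1 cells with IFN-γ and 0 for the interaction of IFN-γ with TAK-243; at least 10 counts in every library gave 1, 1 for IFN-γ in control cells and 0 for that interaction; DESeq2 gave 1, 0 and 0. Testing only the 2 groups compared gave 1 for IFN-γ in control cells, and for the interaction of IFN-γ with sgUba1 no filter and DESeq2 each gave 1 (0 reported).

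Leaving out 1 library gave 0 to 2 members for sgNC cells against tumors, 0 to 3 for control cells against vehicle tumors, 1 to 2 for sgUba1 cells, 1 to 2 for these with IFN-γ, 0 to 1 for IFN-γ in sgNC cells, in sgUba1 cells, in control cells and for its interaction with sgUba1, and 0 to 0 for that with TAK-243. All other ranges equal the reported count.

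The replicate numbers do not pair samples: correlations of deviations were −0.05 to −0.03 in Myc-CaP sgRNA tumors, −0.05 to 0.16 in B16-BL6 tumors (2 of 3 pairs above 0.1), −0.02 to 0.09 in EV and Uba1 OE tumors, −0.18 to 0.31 in TAK-243 tumors and −0.02 to 0.07 in cells. The replicate block kept only replicate numbers found in more than 1 group. In tumors labelled sgUba1 it therefore left out replicates 4 to 7, and Foxa1 turned to 0.02 in this smaller set. With the block, 1 member passed for the interaction of IFN-γ with sgUba1. No cause of these changes was tested.

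Signs turned in these cases, among them calls for Atp2b4 (−0.56 reported) and for Fkbp5 under IFN-γ in control cells (0.10 reported). On log2(TPM + 1) and log2(TPM + 0.1), Hoxb13 in sgNC cells against tumors turned to −0.03 (−0.05 without sgNC tumor replicate 2), Uba1 in TAK-243 tumors to 0.01, Atp2b4 in TAK-243 cells to 0.05 and 0.06, and under IFN-γ Fkbp5 to −0.12 in sgNC cells, −0.11 in sgUba1 cells and −0.20 in control cells, Foxa1 to −0.18 in control cells (adjusted p = 0.026 and 0.028, where the reported 0.05 was no call), and Hoxb13 in sgNC cells to −0.05 and −0.06. For the interaction of IFN-γ with TAK-243 they gave 0.18 for Fkbp5, 0.03 for Foxa1 and 0.02 for Uba1, and for that with sgUba1 0.01 for Fkbp5. At least 10 counts gave −0.03 for Hoxb13 under IFN-γ in sgNC cells, and 0.00 for Fkbp5 in the interaction with sgUba1. Only the 2 groups compared gave −0.02 for Hoxb13 in sgNC cells. Leaving out 1 library gave ranges of −0.05 to 0.55 for Hoxb13 in sgNC cells against tumors and −0.06 to 0.11 for Hoxb13 under IFN-γ in sgNC cells. Fkbp5 turned to −0.00 in sgNC cells and −0.03 in sgUba1 cells, and in the interaction with sgUba1 the range was −0.10 to 0.04 for Fkbp5.

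Counts of all genes called moved more: 492 in tumors labelled sgUba1 (3 to 1862 over the alternatives), 4 with Uba1 OE (0 to 707), 25 in TAK-243 tumors (0 to 544), 127 in B16-BL6 (24 to 534), 10243 between lineages (1397 to 10633), 97 over control groups (2 to 1405), 8130 and 10202 in cells against tumors (98 to 8574 and 1029 to 11023), 4618 and 6119 in sgUba1 cells without and with IFN-γ (511 to 5037 and 974 to 7119), 9644 and 9918 in TAK-243 cells (5793 to 9741 and 6036 to 10077), 603, 443, 4216 and 1534 under IFN-γ in sgNC, sgUba1, control and TAK-243 cells (18 to 1460, 33 to 2087, 1000 to 4384 and 67 to 1771), 720 and 347 for the interactions (4 to 1487 and 1 to 488), and 5357 and 8259 for the added differences (738 to 5630 and 2746 to 8477).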
